A study of Homo sapiens with 11 samples.

Results

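The 9 genes NFE2L2, KEAP1, GCLC, GCLM, SLC7A11, TXNRD1, SRXN1, NQO1 and HMOX1 encode the antioxidant transcription factor NRF2, its inhibitor KEAP1 and 7 of its best known targets. They were chosen by symbol, with earlier results of these data known. All 9 were among the 28252 genes measured by RNA-Seq in RT4 cells, all 9 passed the filter on low counts that left 14502 genes to test, and all 9 were among the 26237 promoters measured by H3K4me3 ChIP-Seq in BEAS-2B cells.

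The study asked which effects of nickel on epithelial cells last after the metal is taken away. RT4 is a line from a non-invasive human bladder tumor, and BEAS-2B is an immortalized line of human bronchial epithelial cells. Untreated (UT) cells received no nickel and nickel-exposed (Ni-E) cells received 100 μM NiCl2 for 6 weeks. Nickel-washed-out (Ni-W) cells of RT4 had the same exposure and then 2 weeks in medium without nickel. The Ni-W cells of BEAS-2B had the same exposure, but were expanded from a colony founded by an individual exposed cell and spent more than 6 months in nickel-free medium, so that a feature of this clone and an effect of past exposure cannot be told apart. The labels also give 2 weeks without nickel for the washed-out cells of both lines. RNA-Seq had 2 libraries for each RT4 group, which the methods describe as biological replicates, and H3K4me3 ChIP-Seq had 1 library for each BEAS-2B group. No genetic change was made in either line, and the RNA and the H3K4me3 levels come from different cell lines, so that they are described separately.

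NRF2, the product of NFE2L2, is a transcription factor that KEAP1 binds in the cytoplasm and hands to a ubiquitin ligase, which keeps its level low. Oxidants and electrophiles modify cysteines of KEAP1, and NRF2 then accumulates, pairs with a small MAF protein and binds antioxidant response elements (ARE) near genes for glutathione synthesis, the thioredoxin system, quinone reduction and haem breakdown. Much of the control of NRF2 is on its protein, which neither assay measures.

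The core of the ARE is written TGACNNNGC, where N is any base. RefSeq promoter windows on GRCh38.p14, from 250 bases before to 50 bases after a transcript start, were searched for it on both strands. The table held 10 windows for 7 of the 9 genes, with 2 windows each for NFE2L2, KEAP1 and TXNRD1. HMOX1 and SLC7A11 had no entry. Of the 10 windows, 4 held the core (40.0%), against 13.3% of all 35116 windows of this length. These were both windows of TXNRD1, the window of GCLM and the window of KEAP1 with the start farther downstream. The core was not found in the windows of NFE2L2, NQO1, GCLC and SRXN1, which says only that these letters are not in this window. None of the 6 matches contained the 7 letters of an AP-1 site, TGACTCA or TGAGTCA, which the core can overlap. A match is a description of the letters and not evidence of binding.

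The sequences below carry all but 1 of the matches in these windows, each 5′ to 3′ on the strand of the gene, in lower case with the core in capitals. On the opposite strand the core reads GCNNNGTCA. TXNRD1 is shown first because its log2 fold change of RNA in Ni-E against UT cells, 1.73, was the largest of the 9. That of SLC7A11, which had no window, was 1.72. The upstream stretch of TXNRD1 (chr12:104215529-104215779, plus strand) runs from 250 bases before the start to the first transcribed base. Its matches begin at 99 and 8 bases before the start. The second window of TXNRD1 starts 71253 bases farther along, and its match (chr12:104286920-104286948, plus strand) begins 102 bases before that start. The stretch of GCLM (chr1:93909456-93909680, minus strand) has a match that begins 34 bases before the start. The stretch of KEAP1 (chr19:10502784-10502812, minus strand) has a match that begins 31 bases before its start, with the same 9 letters as GCLM, and the match that is not shown, TGACACGGC, begins 54 bases before the same start.
TXNRD1 upstream start: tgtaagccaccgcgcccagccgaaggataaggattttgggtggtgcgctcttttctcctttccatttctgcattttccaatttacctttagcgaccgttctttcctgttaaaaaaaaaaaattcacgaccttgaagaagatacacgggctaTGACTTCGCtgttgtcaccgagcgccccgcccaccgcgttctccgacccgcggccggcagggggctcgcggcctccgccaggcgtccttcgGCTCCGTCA
TXNRD1 downstream start: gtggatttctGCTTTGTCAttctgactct
GCLM: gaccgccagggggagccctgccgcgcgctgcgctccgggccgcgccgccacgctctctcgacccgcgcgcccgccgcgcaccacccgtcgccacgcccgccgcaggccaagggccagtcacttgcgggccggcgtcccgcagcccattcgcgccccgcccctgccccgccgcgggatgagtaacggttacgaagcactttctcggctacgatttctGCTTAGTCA
KEAP1 downstream start: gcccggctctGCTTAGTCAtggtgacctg

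In untreated RT4 cells the genes differed widely in level. In TPM, an RNA abundance scaled for transcript length and library depth, the mean of the UT libraries was 331 for NQO1, 120 for NFE2L2, 119 for HMOX1, 63.5 for GCLC, 59.7 for KEAP1, 46.7 for SRXN1, 34.5 for TXNRD1, 16.7 for GCLM and 2.81 for SLC7A11. NFE2L2 and HMOX1, GCLC and KEAP1, and SRXN1 and TXNRD1 are neighbors in this order whose UT libraries overlapped, while the other neighbors did not overlap. RT4 cells without nickel thus contained much NQO1 mRNA and little SLC7A11 mRNA.

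**Figure D1:**
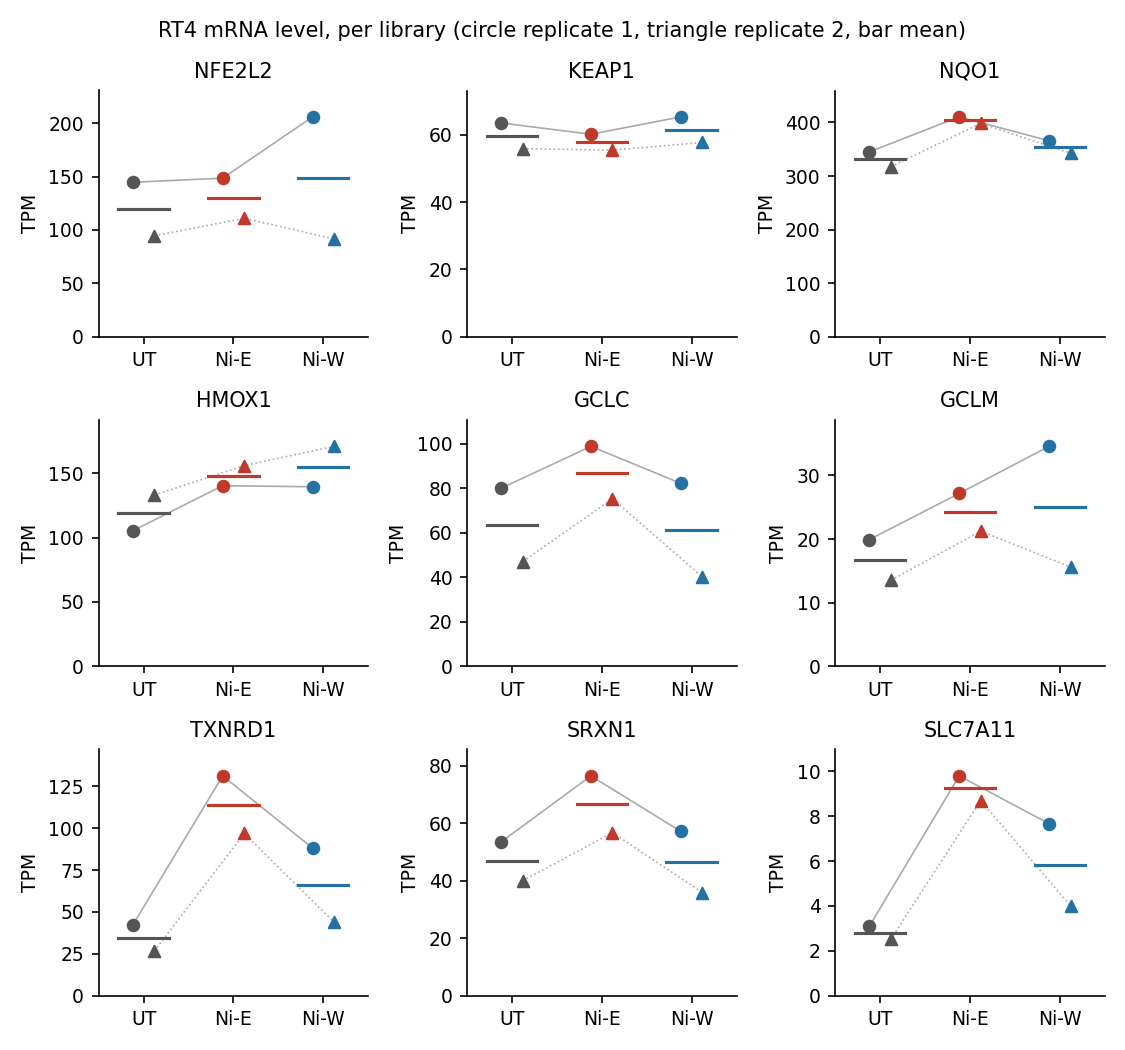
Level of each of the 9 genes in TPM (vertical axis, from 0) in RT4 UT, Ni-E and Ni-W cells, with a circle for replicate 1, a triangle for replicate 2, a bar for the mean of the 2 libraries and gray lines that join libraries of the same replicate number. TXNRD1 and SLC7A11 were highest in Ni-E cells and intermediate in Ni-W cells within each replicate, and KEAP1 stayed between 55.5 and 65.4 TPM in all 6 libraries.

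Facts of the libraries bear on all values. The estimated counts of the 6 RT4 libraries summed to 17075833 to 27736454. Replicate 2 of each group differed from replicate 1 with transcript length: the median log2 difference was 0.46 for 2249 genes with transcripts under 1500 bases and −0.32 for 4968 genes over 4000 bases. Libraries of the same replicate number deviated together, with correlations of their deviations from the group means of 0.658 to 0.764, and so each contrast was also fitted with the replicate number as a block. Of 15 urothelial and epithelial markers, 15 had a mean of at least 1 TPM in UT and Ni-W cells and 14 in Ni-E cells, where KRT20 was at 0.25 and 0.11 TPM against 11.1 and 11.3 TPM in UT cells. Sums of the fibroblast markers were 1.09 and 1.73 TPM in the UT libraries, 3.01 and 4.75 TPM in Ni-E and 2.34 and 5.13 TPM in Ni-W, with 2 of 6 at 0 throughout. Blood and endothelial markers summed to 0.61 to 2.02 TPM, with 3 of 7 at 0 throughout. Other urothelial markers of the same list moved with the groups as well. UPK1A is a uroplakin of the differentiated surface cells. It had 70.6 and 92.5 TPM in UT, 16.1 and 18.5 TPM in Ni-E, and 39.6 and 44.4 TPM in Ni-W cells. UPK1A was called lower in Ni-E than in UT cells, as was KRT20. In Ni-W against UT cells KRT20 was also called lower, with a log2 fold change of −2.97 (adjusted p = 0.0294 by edgeR without the block). UPK1A was called lower there with the block only. With the block UPK2, UPK1B and UPK3A were also called lower in Ni-E cells, with log2 fold changes of −1.63, −0.813 and −0.616. The basal keratin KRT5 was called higher by that fit, at 1.18. The part of these shifts in the results below was not tested.

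Under nickel, RT4 cells upregulated SLC7A11, the cystine importer, and TXNRD1, the cytosolic thioredoxin reductase, each about 3.3-fold. TXNRD1 missed the threshold narrowly in the fit without the block and passed it with the block. No other gene of the 9 was called by either fit, and most of the remaining targets had smaller positive differences. A gene was called at a change of at least 1.5-fold and a Benjamini-Hochberg adjusted p below 0.05 over all 14502 genes by edgeR's quasi-likelihood test. By this rule 1 of the 9 genes was called higher in Ni-E than in UT cells and 0 lower, where 2.17% of all genes tested were called, 1.45% higher and 0.710% lower. In bulk RNA, fewer cells with a transcript and less of it per cell cannot be told apart. With the replicate block 2 of the 9 were called higher and 0 lower, while of all genes 12.6% were called, 7.64% higher and 5.00% lower. The median log2 fold change was 0.46 for the 9 genes and −0.01 for all genes tested, and 8 of the 9 were above 0, against 48.4% of all. The TPM values of Ni-E and UT cells did not overlap for 6 of the 9 genes, all higher in Ni-E cells, while 18.8% of all genes tested were higher and 19.8% lower without overlap.

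After 2 weeks without nickel, edgeR without the block called 0 of the 9 genes between Ni-W and UT cells, where 0.600% of all genes tested were called, 0.503% higher and 0.0965% lower. DESeq2 also called 0 of the 9, and its count over all genes is given below with the dependence on processing. By edgeR without the block TXNRD1 and SLC7A11, 2 of the 9, had an unadjusted p below 0.05, as did 1323 of all genes tested. With the block, TXNRD1 and SLC7A11 were called higher, 2 of the 9, where 8.57% of all genes were called and 5.79% were higher. The median log2 fold change of the 9 was 0.22 and that of all genes 0.00, with 6 of the 9 above 0, against 50.1% of all. TPM values did not overlap for 3 of the 9, HMOX1, TXNRD1 and SLC7A11, all higher in Ni-W cells (14.9% of all genes). This contrast has the same UT libraries as the previous contrast, so their values are given side by side and their likeness is not a result.

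Between Ni-W and Ni-E cells, edgeR without the block called 0 of the 9 genes and 0 of all 14502, although 808 genes had an unadjusted p below 0.05 and DESeq2 called 139. Of the 9, TXNRD1, SRXN1 and SLC7A11 had an unadjusted p below 0.05 and DESeq2 called 0. With the block 655 genes were called, 4.52% of those tested, 1.80% lower and 2.72% higher, and 3 of the 9 were among the genes lower in Ni-W cells: GCLC, TXNRD1 and SLC7A11. The median log2 fold change was −0.23 for the 9 genes and 0.02 for all. Groups did not overlap in TPM for NQO1, TXNRD1 and SLC7A11, lower in Ni-W cells, as for 10.5% of all genes.

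**Figure D2:**
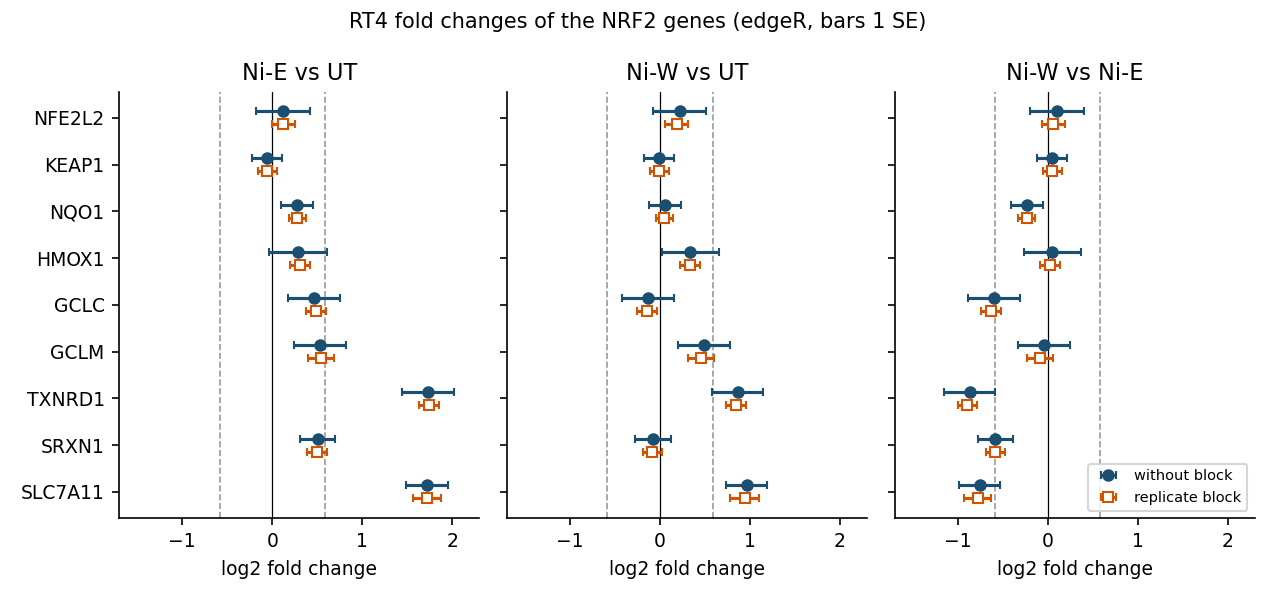
Log2 fold change of each gene in RT4 cells (horizontal axis) for the contrasts of Ni-E with UT, Ni-W with UT and Ni-W with Ni-E cells, from edgeR without a block (filled circles) and with the replicate block (open squares). Bars are 1 standard error, and dashed lines mark a 1.5-fold change in either direction. The block hardly moved the fold changes and narrowed their errors, as for TXNRD1 in Ni-E cells from 0.29 to 0.11.

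NFE2L2 lies at chr2:177218667-177392756 on the minus strand in GENCODE version 44 on GRCh38, as do the positions given for the other genes. Its level was 145 and 94.6 TPM in UT cells, 149 and 111 TPM in Ni-E cells, and 206 and 91.6 TPM in Ni-W cells. Replicate 1 was higher than replicate 2 in every group, and all 3 groups overlapped. The log2 fold change was 0.12 ± 0.30 (SE, n = 2 against 2) for Ni-E vs UT and 0.22 ± 0.30 for Ni-W vs UT, neither of which passed the test. Within replicate 1 the Ni-W library was higher than UT by 0.39 on the log2 scale, and within replicate 2 the difference was −0.04.

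KEAP1 (chr19:10486125-10503558, minus strand) was the steadiest of the 9. Its level was 63.6 and 55.9 TPM in UT cells, 60.2 and 55.5 TPM in Ni-E cells, and 65.4 and 57.8 TPM in Ni-W cells, with all groups overlapping. Ni-E vs UT gave a log2 fold change of −0.06 ± 0.17 and Ni-W vs UT of −0.01 ± 0.17. Ni-W and Ni-E cells differed by 0.05 ± 0.17, and none of these passed the test. The mRNA of the regulator pair thus showed no difference larger than the spread between replicates.

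Glutathione is made from glutamate, cysteine and glycine, and the first step is catalyzed by glutamate-cysteine ligase, with GCLC as its catalytic and GCLM as its modifier subunit. GCLC (chr6:53497341-53616970, minus strand) had 79.9 and 47.0 TPM in UT cells, 98.8 and 75.2 TPM in Ni-E cells, and 82.2 and 40.1 TPM in Ni-W cells. Groups overlapped, since replicate 2 was lower in each, but in each replicate the Ni-E library was the highest. For Ni-E vs UT the log2 fold change was 0.46 ± 0.29, and with the block 0.49 ± 0.11 with an adjusted p of 0.0147, below 1.5-fold and so not called. For Ni-W vs Ni-E it was −0.60 ± 0.29 with an adjusted p of 1.00. With the block it was −0.63 ± 0.11 with an adjusted p of 0.00974, which is called. Ni-W and UT cells differed by −0.13 ± 0.29, within the spread between replicates.

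GCLM (chr1:93885199-93909456, minus strand) had 19.9 and 13.5 TPM in UT cells, 27.2 and 21.2 TPM in Ni-E cells, and 34.6 and 15.6 TPM in Ni-W cells. Both Ni-E libraries were above both UT libraries, while the Ni-W libraries lay far apart and overlapped both groups. The log2 fold change was 0.53 ± 0.29 for Ni-E vs UT (adjusted p = 0.624) and 0.49 ± 0.29 for Ni-W vs UT (adjusted p = 0.847). Neither was called, and with the block the Ni-E difference of 0.54 ± 0.14 (adjusted p = 0.0263) remained under 1.5-fold.

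SLC7A11 encodes the transporter subunit of system xc-, which exchanges glutamate for cystine and so feeds cysteine to glutathione synthesis. The gene lies at chr4:138164097-138242349 on the minus strand. Its level was 3.09 and 2.52 TPM in UT cells, 9.80 and 8.70 TPM in Ni-E cells, and 7.67 and 3.99 TPM in Ni-W cells. No groups overlapped, and the order UT, Ni-W, Ni-E held in each replicate. SLC7A11 was upregulated in Ni-E cells, with a log2 fold change of 1.72 ± 0.24 and an adjusted p of 0.0321. The values within replicates were close, at 1.70 and 1.72. The call was lost, with adjusted p from 0.186 to 0.256, when any of the UT or Ni-E libraries was left out, and by limma on TPM (adjusted p = 0.162), while the fold change stayed at 1.70 to 1.73 without any of these libraries. For Ni-W vs UT it was 0.96 ± 0.23 with an adjusted p of 0.198, and with the block 0.94 ± 0.16 with an adjusted p of 0.00324, which is called. For Ni-W vs Ni-E it was −0.76 ± 0.23 with an adjusted p of 0.610, and with the block −0.78 ± 0.15 with an adjusted p of 0.0140, again called. After washout, SLC7A11 thus lay between UT and Ni-E cells by the fit that takes the replicates as pairs, and was not separated from either by the fit that does not.

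TXNRD1 keeps thioredoxin reduced, at the cost of NADPH, and lies at chr12:104215779-104350307 on the plus strand. Its level was 42.2 and 26.7 TPM in UT cells, 131 and 96.9 TPM in Ni-E cells, and 88.2 and 43.8 TPM in Ni-W cells. Groups did not overlap, although the lower Ni-W library was close to the higher UT library. For Ni-E vs UT the log2 fold change was 1.73 ± 0.29, the largest of the 9, with an adjusted p of 0.0507. With the block it was 1.74 ± 0.11 with an adjusted p of 3.66e-06. Without the block it passed the test by DESeq2 (adjusted p = 3.18e-05), with no filter (0.0173), with only the 2 groups (0.0335) and without either Ni-W library (0.0339 and 0.0333). It did not pass with RLE size factors (0.0542), with at least 10 counts in every sample (0.0587), by limma on TPM (0.180) or when any of the UT or Ni-E libraries was left out (0.165 to 0.356). For Ni-W vs UT the difference was 0.86 ± 0.28 with an adjusted p of 0.386, and with the block 0.85 ± 0.11 with an adjusted p of 0.000629. For Ni-W vs Ni-E it was −0.87 ± 0.28 with an adjusted p of 0.689, and with the block −0.89 ± 0.11 with an adjusted p of 0.00114. As for SLC7A11, the order UT, Ni-W, Ni-E held in each replicate.

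SRXN1, sulfiredoxin, repairs overoxidized peroxiredoxins, and lies at chr20:646615-653200 on the minus strand. Its level was 53.5 and 40.0 TPM in UT cells, 76.5 and 56.7 TPM in Ni-E cells, and 57.2 and 35.9 TPM in Ni-W cells. Ni-E libraries were above both UT libraries, and Ni-W cells overlapped both groups. The log2 fold change was 0.50 ± 0.20 in Ni-E vs UT cells and −0.58 ± 0.20 in Ni-W vs Ni-E cells, neither called. Both had an adjusted p below 0.05 with the block (0.00921 and 0.0104) but stayed just under 1.5-fold.

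NQO1 reduces quinones without forming radicals and is the target most often read as a measure of NRF2 activity. The gene lies at chr16:69706996-69726668 on the minus strand. Its level was 345 and 317 TPM in UT cells, 410 and 398 TPM in Ni-E cells, and 366 and 343 TPM in Ni-W cells. The Ni-E libraries were above all others, by little. The log2 fold change was 0.28 ± 0.18 for Ni-E vs UT, with an adjusted p of 0.726 and, with the block, 0.0660, so that it was not called by either fit. It was 0.05 ± 0.18 for Ni-W vs UT.

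HMOX1, haem oxygenase 1, breaks haem down to biliverdin, iron and carbon monoxide, and lies at chr22:35380361-35394214 on the plus strand. Its level was 105 and 133 TPM in UT cells, 140 and 156 TPM in Ni-E cells, and 140 and 171 TPM in Ni-W cells. It was the only gene of the 9 with replicate 2 above replicate 1 in every group, and its transcript was the shortest at a mean of 1554 bases. Both nickel groups were above the UT libraries and overlapped each other. The log2 fold changes against UT were 0.28 ± 0.32 in Ni-E and 0.34 ± 0.32 in Ni-W cells, and neither passed the test with or without the block (adjusted p = 0.0944 and 0.0930 with it).

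Exons of some of these genes overlap exons of other genes in GENCODE. NQO1, GCLC, SLC7A11 and NFE2L2 overlap a noncoding gene on the opposite strand, and NFE2L2 also exons of AGPS and HNRNPA3 there. On its own strand GCLC and NFE2L2 overlap a noncoding gene and SRXN1 a protein-coding gene. The use of strand in counting is not given in the sources used here, and reads of such partners could not be separated without it.

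The genes whose log2 CPM over the 6 RT4 libraries was most like that of TXNRD1 were PIAS2 (Pearson r = 0.998), NFIL3 (r = 0.997) and RIMKLA (r = 0.995). In TPM the likeness was less close for PIAS2. It had 10.4 and 5.35 TPM in UT, 13.9 and 9.86 TPM in Ni-E, and 16.5 and 5.13 TPM in Ni-W cells. Its groups overlapped, unlike those of TXNRD1. NFIL3, a basic leucine zipper repressor, had 11.9 and 8.41 TPM in UT cells, 23.4 and 18.7 TPM in Ni-E cells, and 20.2 and 11.95 TPM in Ni-W cells. The 6 points share the replicate shift with transcript length given above, and the correlation is a description only.

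Other genes of the NRF2 network were read from 9 lists with 111 genes, of which 108 were tested. The lists were drawn up with earlier results of these data known, so their counts are a description and not a test. In Ni-E vs UT, 10 were called higher and 0 lower, where 1.45% of all genes tested were higher and 0.710% lower. With the block 30 were higher and 2 lower (7.64% and 5.00% of all genes). In Ni-W vs UT, 1 was called higher and 0 lower (0.503% and 0.0965%), and with the block 17 higher and 1 lower (5.79% and 2.78%). In Ni-W vs Ni-E, 0 were called without the block, as of all genes, and with it 3 were higher and 9 lower (2.72% and 1.80%). The 10 calls in Ni-E vs UT were all lost when any of the UT or Ni-E libraries was left out, with adjusted p from 0.0737 to 0.354, and all were kept with the block.

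Of all genes tested in Ni-E vs UT cells, 1.45% were called higher and 0.710% lower, and with the block 7.64% and 5.00%. The partners and controllers of NRF2, such as the small MAF proteins and CUL3, were called in neither direction in Ni-E cells (0 of 13 tested). Their median log2 fold change was 0.07. With the block 1 was called higher, BACH1, a repressor that competes for the ARE, at 0.73 (adjusted p = 0.0263). It was not chosen by the rule for named genes. The most abundant was SQSTM1, which binds KEAP1 in autophagy, at 1009 and 760 TPM in UT cells and 1352 and 1059 TPM in Ni-E cells, not called. Of 18 tested genes for glutathione making and use, 1 was higher and 0 lower in Ni-E cells (4 and 1 with the block). This was GPX8, a peroxidase of the endoplasmic reticulum, with a log2 fold change of 2.22 ± 0.25 (adjusted p = 0.0226) at a low level, from 1.08 and 0.78 TPM to 4.18 and 4.42 TPM. GGT1, which splits glutathione outside the cell, was the only list gene called in Ni-W vs UT cells, at 1.98 ± 0.26 (adjusted p = 0.0497), and may share reads with close copies. This call was lost with RLE size factors (adjusted p = 0.0511), with at least 10 counts in every sample (0.0588), by limma on TPM (0.0688), with only the 2 groups (0.210) and when any of the 6 libraries was left out (0.0648 to 0.363). GPX2, an epithelial glutathione peroxidase and the most abundant of this list, was at 1185 and 1230 TPM in UT cells and 1800 and 1939 TPM in Ni-E cells, called with the block only (adjusted p = 0.00207).

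The quinone, carbonyl and drug detoxification list held 4 genes called higher and 0 lower among 22 in Ni-E cells, and 8 higher and 1 lower with the block, against 1.45% of all genes higher without and 7.64% with it. These enzymes remove carbonyls and aldehydes. AKR1C1, an aldo-keto reductase, rose from 4.74 and 5.12 TPM to 29.95 and 30.09 TPM, a log2 fold change of 2.59 ± 0.24 (adjusted p = 0.0124). The aldehyde dehydrogenase ALDH3A1 rose from 36.1 and 38.4 TPM to 143 and 149 TPM, by 1.97 ± 0.29 (adjusted p = 0.0388). AKR1B10 rose by 1.85 ± 0.27 (adjusted p = 0.0364) and ALDH1A1 by 3.49 ± 0.50 (adjusted p = 0.0363), the latter from 0.27 and 0.16 TPM, and both calls were lost by limma on TPM (adjusted p = 0.0801 and 0.0644). The most abundant, AKR1B1, had 1258 and 1306 TPM in UT cells and 2933 and 3084 TPM in Ni-E cells, with an adjusted p of 0.0748, and 1.64e-05 with the block. AKR1C1 shares sequence with AKR1C2 and AKR1C3, and AKR1B10 with AKR1B1, so that the split of reads among them is uncertain. In Ni-W cells AKR1C1 was at 13.6 and 13.2 TPM and ALDH3A1 at 47.5 and 59.9 TPM.

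The counts of the next lists stand beside 1.45% of all genes called higher in Ni-E cells and 0.710% lower. With the block these shares were 7.64% and 5.00%. The thioredoxin and peroxiredoxin list had 0 of 16 genes called in Ni-E cells (2 higher with the block) and a median log2 fold change of 0.05. Its most abundant member, PRDX1, had 942 and 1105 TPM in UT cells and 1023 and 1171 TPM in Ni-E cells. Genes of NADPH supply had a median of 0.43 and 0 of 8 called (2 higher with the block), led in level by TKT at 889 and 958 TPM in UT cells and 1227 and 1255 TPM in Ni-E cells. Haem breakdown and iron storage had 0 of 8 called (1 with the block), with FTH1 at 6626 and 6404 TPM in UT cells and 8044 and 7984 TPM in Ni-E cells. The call with the block was SLC40A1, at a log2 fold change of 1.87 (adjusted p = 3.37e-05). Superoxide and peroxide enzymes had 0 of 4 called (2 with the block), with SOD1 at 305 and 338 TPM in UT cells and 338 and 383 TPM in Ni-E cells. The calls with the block were SOD2, at 1.64 (adjusted p = 5.95e-06), and CAT, at 0.70 (adjusted p = 0.000524). SOD2 had 50.6 and 30.9 TPM in UT cells and 167 and 114 TPM in Ni-E cells. SLC40A1, SOD2 and CAT were not chosen by the rule for named genes. Of 9 other often listed NRF2 targets 1 was called higher (4 with the block). This was TRIM16L, at 1.58 ± 0.19 (adjusted p = 0.0252), whose reads may be shared with TRIM16, and the most abundant of them, GDF15, had 503 and 620 TPM in UT cells and 1077 and 1199 TPM in Ni-E cells.

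SLC7A11 is also a target of ATF4, the transcription factor of the amino acid and endoplasmic reticulum stress responses, and ATF4 targets were therefore read beside it. Of 10 tested, ATF4 itself among them, 4 were called higher and 0 lower in Ni-E cells (6 and 0 with the block). The median log2 fold change was 0.70. DDIT3, TRIB3 and PHGDH of this list, at 0.35, 0.05 and −0.02, were called by neither fit. They were not chosen by the rule for named genes. Of all genes 1.45% were called higher, and 7.64% with the block. ATF3, a stress-induced factor, rose by 2.52 ± 0.34 (adjusted p = 0.0313), from 5.20 and 7.46 TPM to 34.3 and 40.4 TPM, and was at 5.41 and 5.05 TPM in Ni-W cells. SLC7A5, an amino acid transporter, rose by 1.19 ± 0.18 (adjusted p = 0.0379). VLDLR, a lipoprotein receptor, rose by 2.35 ± 0.26 (adjusted p = 0.0200) and DDIT4, an inhibitor of mTOR signaling, by 1.13 ± 0.17 (adjusted p = 0.0379), and both are also known to respond to hypoxia. By limma on TPM the calls of VLDLR (adjusted p = 0.0960), SLC7A5 (0.161) and DDIT4 (0.152) were lost. ATF4 itself had 600 and 769 TPM in UT cells and 833 and 982 TPM in Ni-E cells and was not called.

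**Figure D3:**
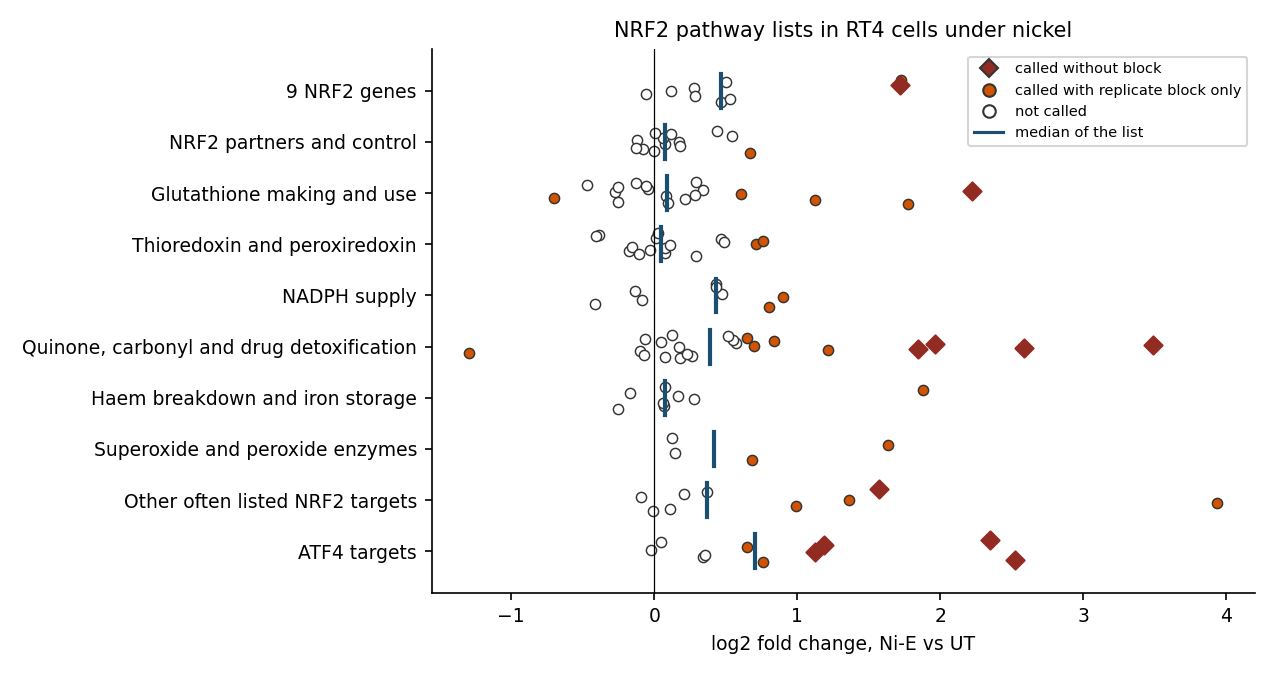
Log2 fold change in RT4 Ni-E vs UT cells (horizontal axis) of the 9 NRF2 genes and of the tested genes of the 9 lists. Each point is a gene, with diamonds for genes called without the block, filled circles for genes called with the replicate block only and open circles for the rest, and vertical bars are list medians. The medians run from 0.05 for thioredoxin and peroxiredoxin genes to 0.70 for ATF4 targets, and the called genes without the block are all to the right of 0.

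H3K4me3 marks the promoters of active and poised genes. In BEAS-2B cells the level of a gene was given in RPKM, reads scaled for window length and library depth, over 2 kb on each side of its start, with a single value per gene. For genes with several starts, such as TXNRD1, KEAP1 and NFE2L2, the start used is not given in the sources used here. With 1 library per condition there is no test, and each value has a 95% Wilson interval from the reads behind it, which covers counting error only. The libraries held 28385726 reads in UT, 37493959 in Ni-E and 29933548 in Ni-W cells, and the median promoter had 1.568, 1.387 and 1.119 RPKM, respectively. Changes were therefore also given as the chromatin dynamic score, the difference between conditions of the square root of the RPKM over the library median, for which counting alone gives a standard error of 0.0511 (Ni-E against UT), 0.0572 (Ni-W against UT) and 0.0554 (Ni-W against Ni-E). A score past counting error is a score outside the 95% range of this error.

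Of 7 epithelial markers, 5 had at least 1 RPKM in UT cells and 4 in Ni-E and Ni-W cells, with TP63 and KRT19 under 1 RPKM in each library. Their sum was 25.8 RPKM in UT, 25.7 in Ni-E and 16.7 in Ni-W cells. Of 6 fibroblast markers, COL1A1 and PDGFRB had at least 1 RPKM in each library, and the list summed to 16.99, 15.1 and 8.65 RPKM. These 2 carried the lower sum in the Ni-W library. The other 4, COL1A2, COL3A1, DCN and LUM, all below 1 RPKM, were higher there than in the UT library, such as LUM with 0.618 against 0.396 RPKM, and the median score of the list was 0.181. Of 7 blood and endothelial markers 0 reached 1 RPKM, PTPRC was listed at 0 in each library, and the sums were 1.35, 1.46 and 1.13 RPKM. The part of these markers in the results was not tested.

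All 9 promoters carried the mark in UT cells, at 3.08 to 8.48 RPKM, above 55.8% to 85.9% of all promoters. In Ni-E cells 3 of the 9 had a score above counting error, NFE2L2, NQO1 and SRXN1, as did 29.1% of all promoters, and 0 had a score below it (3.74% of all). Relative to the library median, 0 of the 9 changed by 1.5-fold, as against 1.01% of promoters with at least 1 RPKM that were this much higher and 0.595% that were this much lower. The median score was 0.0496, against 0.0528 for all promoters and 0.0767 for the 11132 promoters in the range that the 9 occupy in the Ni-W library. In RPKM without scaling, 8 of the 9 were lower in Ni-E than in UT cells, with ratios of 0.853 to 1.09 and 0 of the 9 at least 1.5-fold lower (1.59% of promoters), and the sign of the median score turned (−0.107).

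In Ni-W cells 6 of the 9 promoters were lower than in UT cells, past counting error, and 3 were higher. Of all promoters 36.3% were lower and 19.9% higher. Relative to the library median, 4 of the 9, KEAP1, HMOX1, TXNRD1 and SRXN1, were at least 1.5-fold lower, against 18.4% of the 14127 promoters that reached 1 RPKM in any library. Of the 9, 0 were this much higher, against 4.39% of these promoters. The median score of the 9 was −0.325, against −0.0266 for all promoters and −0.212 for the 7913 promoters in the range that the 9 occupy in the Ni-E library. In RPKM as deposited all 9 were lower, with ratios of 0.428 to 0.989, and 6 were at least 1.5-fold lower, as were 71.0% of the promoters of at least 1 RPKM. The lower levels in this library are thus shared by most promoters, and the direction for NFE2L2, GCLM and SLC7A11 depends on the scaling.

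The regulators differed from each other. At NFE2L2 the UT library had 7.44 RPKM (95% interval 6.96 to 7.96), the Ni-E library 7.34 (6.91 to 7.78) and the Ni-W library 6.57 (6.13 to 7.05), a Ni-W vs UT score of 0.245. The KEAP1 promoter had 7.30 RPKM (6.82 to 7.82), 6.35 (5.96 to 6.76) and 3.27 (2.96 to 3.61), a score of −0.449, the lowest of the 9. The 2 promoters were thus alike in UT cells and set apart in the Ni-W library, where the KEAP1 interval lay below that of NFE2L2.

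The glutathione genes also did not move together. At GCLC the UT library had 6.62 RPKM (6.17 to 7.11), the Ni-E library 6.43 (6.04 to 6.85) and the Ni-W library 3.32 (3.01 to 3.66), a Ni-W vs UT score of −0.334. GCLM had 7.77 RPKM (7.27 to 8.30), 7.18 (6.77 to 7.62) and 6.74 (6.29 to 7.22), a score of 0.229. SLC7A11 had 5.10 RPKM (4.70 to 5.53), 4.35 (4.03 to 4.69) and 5.05 (4.66 to 5.46), a score of 0.320, the highest of the 9, and was the only promoter of the 9 with more RPKM in the Ni-W than in the Ni-E library.

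The remaining targets were lower in the Ni-W library. At TXNRD1 the UT library had 3.26 RPKM (2.94 to 3.61), the Ni-E library 2.82 (2.56 to 3.10) and the Ni-W library 1.40 (1.20 to 1.62), a Ni-W vs UT score of −0.325 and the lowest level of the 9 in the Ni-E and Ni-W libraries. SRXN1 had 8.48 RPKM (7.96 to 9.03), 8.18 (7.74 to 8.65) and 4.001 (3.66 to 4.38), a score of −0.435. NQO1 had 3.08 RPKM (2.78 to 3.42), 3.37 (3.09 to 3.68) and 1.67 (1.45 to 1.92), a score of −0.181, and HMOX1 had 4.94 RPKM (4.55 to 5.37), 4.29 (3.97 to 4.63) and 2.297 (2.04 to 2.59), a score of −0.342. For these genes the Ni-W interval lay below the other intervals.

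Against Ni-E cells the Ni-W library had the same division. The score was past counting error and lower for the same 6 promoters (44.3% of all promoters) and higher for NFE2L2, GCLM and SLC7A11 (14.8% of all), with a median of −0.325 against −0.0746 for all promoters. These 6 promoters were at least 1.5-fold lower relative to the median, against 30.3% of the promoters of at least 1 RPKM, and also in RPKM as deposited (63.8%). On both scales 0 of the 9 were this much higher, as were 4.07% and 2.24% of the promoters. Since this contrast has the Ni-W library in common with the contrast to UT cells, the likeness is not a separate result.

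**Figure D4:**
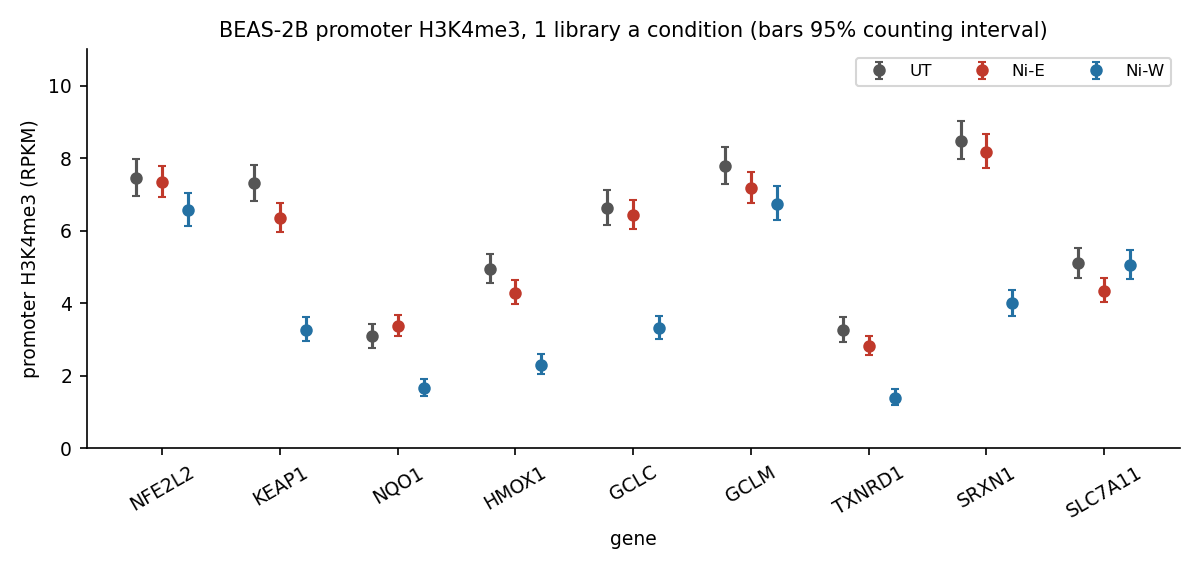
H3K4me3 at the promoters of the 9 genes in BEAS-2B cells in RPKM (vertical axis, from 0), with a point for the library of each condition and 95% Wilson intervals from the read counts. KEAP1, NQO1, HMOX1, GCLC, TXNRD1 and SRXN1 sit lower in the Ni-W library, while NFE2L2, GCLM and SLC7A11 stay within 0.868 to 0.989 of their UT level.

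The promoters of the 9 lists were mostly lower in the Ni-W library as well. In each of the lists the median Ni-W vs UT score was below 0, from −0.426 for ATF4 targets to −0.0751 for quinone, carbonyl and drug detoxification. The median was −0.0266 for all promoters. It was −0.197 for promoters of at least 1 RPKM in any library, of which 21.9% had a score above 0. The list medians also cover promoters under 1 RPKM, such as HMOX2 at 0 RPKM in each library. They therefore cannot be set against the latter median. The medians of glutathione making and use (−0.189) and haem breakdown and iron storage (−0.158), like that of detoxification, were below the median of all promoters. Promoters of at least 1 RPKM ranged from GPX8, at 3.21 RPKM in the UT and 5.45 RPKM in the Ni-W library (2.38-fold higher relative to the library median), to VLDLR, at 9.55 and 3.12 RPKM (0.457 of the UT level relative to the median). The carbonyl reductase CBR3 was at 9.96 and 4.18 RPKM, the sestrin SESN2 at 10.0 and 4.40 RPKM, and the NRF2 relative NFE2L1 at 11.3 and 5.27 RPKM, each the lowest score of its list. With promoters under 1 RPKM in both of these libraries left out, the highest scores of these lists were above 0. They were those of ABCC3 (0.0440, at 3.17 and 2.41 RPKM), SESN1 (0.438, at 10.1 and 9.94 RPKM) and GSK3B (0.393, at 13.3 and 12.2 RPKM). Detoxification promoters left out in this way included AKR1C3 (0.242, at 0.308 and 0.526 RPKM) and AKR1C1 (0.163, at 0.238 and 0.342 RPKM), which scored higher than ABCC3. AKR1C3 and AKR1C1 were not chosen here by the rule for named genes. Of all 22 detoxification promoters, 3 were at least 1.5-fold higher relative to the library median and 3 this much lower.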

How the data were processed

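RNA-Seq of RT4 cells and H3K4me3 ChIP-Seq of BEAS-2B cells were analysed. The deposited RNA-Seq values are estimated counts and TPM per gene from RSEM. The methods describe STAR alignment to hg19, while the submitters' processing notes name GRCh38, and the build behind these counts is not given in the sources used here. After rounding, the counts entered edgeR 4.0.16 (quasi-likelihood, TMM, edgeR's expression filter) in R 4.3.3, in 1 model of the 3 groups, over 14502 genes. Standard errors are the absolute log2 fold change over the square root of the quasi-likelihood F, with a spread estimated from all 6 libraries. Deposited TPM values served for levels. The deposited H3K4me3 values are promoter RPKM, which the authors made from BWA alignments to hg38 after removing redundant reads, without peak calling. In each library they are whole multiples of 1 step (within 0.00051), from which reads and depth were recovered, with 3 reads as the floor (0.0200 to 0.0264 RPKM), below all values given for the 9 genes. No molecular identifiers were used, so that intervals cover counting error only. Input libraries, BEAS-2B RNA and H3K27me3 were not analysed here, nor the deposited FPKM.

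Replicate numbers come from the sample titles, where a suffix marks the duplicate. Correlations of deviations between the libraries with the same number were 0.658, 0.764 and 0.689, so the numbers were taken to pair the samples. Alternatives were DESeq2 1.42.0, limma 3.58.1 on log2(TPM + 1), RLE size factors, other filters, 2 groups only, a replicate block, each library left out, and other scalings of RPKM.

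The 9 genes and the lists were chosen with earlier results of these data known. The genes named are all 9 and, per list and contrast, up to 4 called genes with the largest change and the most abundant gene, for H3K4me3 the highest and lowest score per list, and the 3 genes most like TXNRD1. For H3K4me3, promoters under 1 RPKM in both the UT and the Ni-W library were left out of this choice. Only some of the H3K4me3 genes so chosen are printed. Scripts were tested on simulated data.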

Additional observations from a re-analysis of the deposited data

How the results depend on the processing

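With the replicate block, the genes called rose from 314 to 1833 (Ni-E vs UT), from 87 to 1243 (Ni-W vs UT) and from 0 to 655 (Ni-W vs Ni-E), and the called genes among the 9 numbered 2, 2 and 3. It changed the call of TXNRD1 in each contrast, of SLC7A11 in both contrasts of Ni-W cells and of GCLC in Ni-W vs Ni-E, and no other call among the 9. DESeq2 with the block, chosen after seeing the data, called 1429, 964 and 528 genes, and 2, 2 and 3 of the 9. DESeq2 without it called 730, 442 and 139, and 2 of the 9 in Ni-E vs UT. In Ni-E vs UT, 209 genes were called with at least 10 counts in every sample and 170 by limma. Of the 9, 2 were called without filter, 2 with only 2 groups and 0 by limma. The counts over all genes without filter and with only 2 groups are not given here, so no share stands beside these calls. In Ni-W vs UT, 193 genes were called without filter, 54 with at least 10 counts and 0 with only 2 groups, and in Ni-W vs Ni-E 14 without filter. Leaving out a library gave 0 to 320 genes and 0 to 2 of the 9 in Ni-E vs UT, with 44 and 18 genes without UT replicate 1 and 2 and 0 without either Ni-E library. It gave 0 to 38 genes in Ni-W vs UT, where the highest values were 32 and 38 without Ni-W replicate 1 and 2. A group left with 1 library was taken to vary like the others.

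Log2 fold changes of uncalled genes changed sign when a library was left out. The ranges for Ni-W vs UT were −0.22 to 0.56 for NFE2L2, −0.11 to 0.10 for KEAP1 (0.043 by limma), −0.10 to 0.20 for NQO1, −0.042 to 0.67 for HMOX1, −0.49 to 0.16 for GCLC and −0.22 to 0.058 for SRXN1. For Ni-W vs Ni-E they were −0.33 to 0.44 for NFE2L2, −0.057 to 0.16 for KEAP1, −0.33 to 0.37 for HMOX1 and −0.46 to 0.29 for GCLM, and for Ni-E vs UT −0.048 to 0.30 for NFE2L2. The 11 calls of list genes were all kept by DESeq2, without filter and with the block, 5 by limma, and 0 without a UT or Ni-E library.

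The median H3K4me3 score of the 9 was, for Ni-E vs UT, −0.107 without scaling, −0.0361 with quantile normalization and 0.0555 as a log2 ratio of (RPKM + 1). In the same order, Ni-W vs UT gave −0.624, −0.136 and −0.423, and Ni-W vs Ni-E gave −0.545, −0.144 and −0.482. Without scaling the signs turned for NFE2L2 (−0.0197, −0.164 and −0.145 in the 3 contrasts), SRXN1 and GCLC (−0.0520 and −0.0370 for Ni-E vs UT), GCLM (−0.107 for Ni-E vs UT, and −0.191 against UT and −0.0836 against Ni-E in Ni-W cells) and SLC7A11 (−0.0120 for Ni-W vs UT). The causes were not tested. With 2 libraries a group, and 1 for H3K4me3, precision is set by their number.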
